A study of Brassica napus with 6 samples.

Results

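NAP, ORE1 and SAG12 are Arabidopsis names of genes that drive or mark the ageing of plant organs, and their copies were followed here in the silique wall, the outer tissue of the pod, of rapeseed (Brassica napus). Members were the rows of the deposited table given one of their Arabidopsis loci, AT1G69490 for NAP, AT5G39610 for ORE1 and AT5G45890 for SAG12. This gave 9 of the 3248 genes with values in the table, of which 4 were NAP, 3 ORE1 and 2 SAG12 copies. The walls were collected 15 days after flowering from lines of an association population, with 12 long-silique accessions mixed into one pool and 11 short-silique accessions into the other. Each pool was sequenced as 3 libraries. No genotype or treatment beyond silique length is given for the accessions, and a pool does not show which of its accessions carried a signal. Nothing in the labels ties the libraries of a pool to separate plants, so p-values reflect the spread among libraries alone, and that spread may be technical.

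Every gene in the table had been called by the authors as differing between the pools. Copies that are not in it were not analysed here, and the presence of each member says by itself that the authors found it to differ. Library totals recovered from counts and FPKM lay between 22892442 and 30259269 reads, and a floor of 3 counts equals 0.0991 to 0.131 CPM. The table gave no way to check the wall tissue against a full set of markers. Of 9 fruit patterning loci it held 1, of 15 seed marker loci 0 and of 12 petal, stamen and pollen loci 1.

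NAP encodes a NAC transcription factor that promotes the senescence of leaves, and in Arabidopsis also that of the silique. ORE1 encodes another NAC factor of the same process. It acts downstream of ethylene signalling and its transcript is cut under guidance of the microRNA miR164. SAG12 encodes a papain-type cysteine protease of the vacuole and is a late marker of senescing tissue. Rapeseed joins an A and a C subgenome, so that an Arabidopsis gene often has more than 1 copy and a locus is read as a group of copies. In bulk tissue, fewer cells that use a gene and less of its RNA per cell cannot be told apart.

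All 9 copies were lower in the long-silique pool in the authors' deposited table, in which 65.6% of all listed genes were lower. In all 9 the FPKM of the libraries of the 2 pools did not overlap, with the long libraries lower, and the same lower separation in CPM held for 62.2% of listed genes. Tested with edgeR on the counts of the whole table, 8 copies passed the filter on low counts and 7 of them fell in the long pool, against 43.5% of tested genes called lower. Calls needed a p of at most 0.005 that stayed at or under 0.05 after Benjamini-Hochberg adjustment, for which 65264 genes were taken as tested, a number recovered from the deposited FDR. By this rule 66.6% of tested genes were called in either direction. The 7 called copies had log2 fold changes (long over short) from -1.34 to -5.43, below the median of -1.22 over all 2574 tested genes. That median mixes both directions, and no listed gene has an absolute log2 fold change under 1.0 in the authors' comparison. A gene called lower therefore tends to lie below it, and the members are not shown to have fallen more than other lower genes. BnaA07g24270D, at -1.34, stood only at percentile 42.5 of all tested genes, counted from the lowest. The members come from a table chosen for differing between these same libraries, so neither count is independent evidence of a difference.

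**Figure D1:**
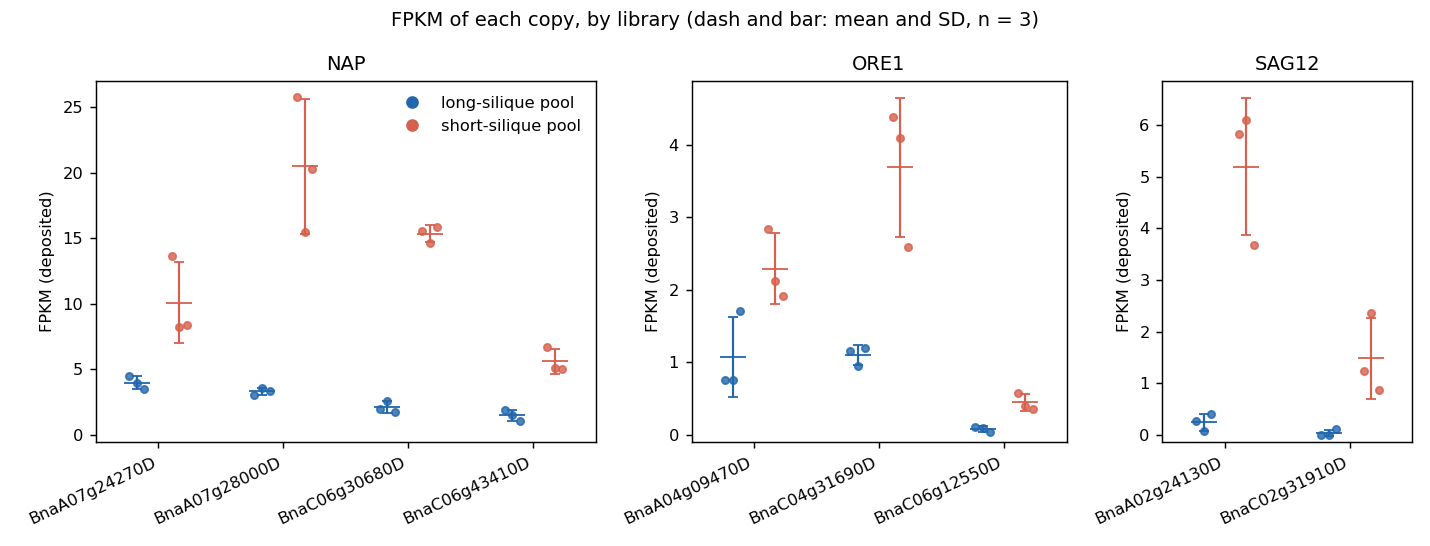
FPKM of each NAP, ORE1 and SAG12 copy (y axis, a separate scale per panel) in the 3 long-silique (blue) and 3 short-silique (red) libraries, with the mean and SD of each pool as dash and bar. The points of the pools stay apart for each copy; the highest copy of the short pool is BnaA07g28000D at 15.5 to 25.8 FPKM, while the SAG12 copies of the long pool lie near 0.

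The NAP copies carried most of the signal of the 9 genes. On the FPKM scale, which corrects for gene length, the 4 NAP copies together held 79.6% ± 4.96 (SD, n = 3) of the summed level in the short pool and 81.0% ± 6.50 (SD, n = 3) in the long pool. Their summed level was 61.7, 43.5 and 49.5 FPKM in short replicates 1, 2 and 3 and 11.4, 11.7 and 9.70 FPKM in long replicates 1, 2 and 3. The long libraries were all lower, and the ratio of the pool means was 4.73, short over long. On the log2(FPKM + 0.1) scale the sum differed by -2.22, long minus short, with an exact permutation p of 0.1 (two-sided, adjusted over 3 loci 0.1). This is the smallest p that 3 against 3 libraries allow, so an exact test of a single value cannot pass 0.05 in this design.

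The copies of NAP lie on A07 and C06, which correspond to each other between the subgenomes. BnaA07g28000D (A07, 20266704 to 20267687, positions on the Darmor reference) had the highest level of all members in the short pool. It stood at 25.8, 15.5 and 20.3 FPKM in short replicates 1 to 3 and at 3.06, 3.58 and 3.38 FPKM in long replicates 1 to 3. Every long library was far below every short one. Its log2 fold change was -2.61 ± 0.23 (SE; edgeR adjusted p = 4.53e-06). The length that counts and FPKM imply for this gene model, 813 bases, was shorter than the 1007 to 1013 bases implied for the other 3 NAP copies.

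BnaC06g30680D (C06, 31342416 to 31343590) had the smallest p of the 9 copies. Its FPKM was 15.6, 14.7 and 15.9 in short replicates 1 to 3 and 1.96, 2.61 and 1.77 in long replicates 1 to 3. The short libraries were close together, with an SD of 0.626 FPKM around a mean of 15.4, and lay well above the long ones. The log2 fold of -2.85 ± 0.22 (SE; edgeR adjusted p = 1.19e-06) was the lowest of the NAP copies.

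BnaA07g24270D (A07, 18152148 to 18153317) changed least of the NAP copies. It had 13.6, 8.25 and 8.39 FPKM in short replicates 1 to 3 and 4.48, 3.97 and 3.47 FPKM in long replicates 1 to 3. The pools did not overlap, but short replicate 1 stood above the other short libraries. The log2 fold change was -1.34 ± 0.24 (SE; edgeR adjusted p = 0.00329). BnaC06g43410D, on an unplaced part of C06 (C06_random, 2854151 to 2855368), was the lowest NAP copy in both pools. Its levels were 6.70, 5.10 and 5.02 FPKM in the short and 1.88, 1.5 and 1.08 FPKM in the long replicates 1 to 3. It fell by 1.91 ± 0.28 in log2 units (SE; edgeR adjusted p = 0.000547), again with no overlap.

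The order of the NAP copies differed between the pools. In the short pool the means ran from BnaA07g28000D at 20.5 ± 5.15 over BnaC06g30680D at 15.4 ± 0.626 and BnaA07g24270D at 10.1 ± 3.07 to BnaC06g43410D at 5.61 ± 0.948 FPKM (SD, n = 3). The libraries of the first 2 overlapped, but within each short library BnaA07g28000D was above BnaC06g30680D in FPKM. In CPM, which does not correct for length, BnaA07g28000D was below BnaC06g30680D in short replicate 2 (12.6 against 14.8). Their order in that library thus depends on the shorter length implied for BnaA07g28000D. In the long pool BnaA07g24270D came first at 3.97 ± 0.505 FPKM, before BnaA07g28000D at 3.34 ± 0.262 FPKM (SD, n = 3), which overlapped with it. BnaC06g30680D at 2.11 ± 0.440 and BnaC06g43410D at 1.49 ± 0.400 FPKM (SD, n = 3) followed and also overlapped. Within libraries, BnaA07g24270D was below BnaA07g28000D and below BnaC06g30680D in 3 of 3 short libraries and above both in 3 of 3 long libraries.

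BnaA07g24270D held 36.4% ± 2.71 of the NAP sum in the long pool, but 19.3% ± 2.60 in the short one (SD, n = 3). BnaC06g30680D held 19.3% ± 2.73 in the long libraries, but 30.3% ± 4.46 in the short ones (SD, n = 3). For BnaA07g28000D the shares were 30.8% ± 3.98 and 39.4% ± 3.36 (SD, n = 3). The libraries of the pools did not overlap for any of these 3 copies, each with an exact permutation p of 0.1 (two-sided, adjusted over 9 copies 0.225). BnaC06g43410D held 13.5% ± 2.75 in the long libraries and 10.9% ± 0.799 in the short ones (SD, n = 3), with overlap. BnaA07g28000D and BnaC06g30680D together accounted for 74.8% of the 40.7 FPKM by which the NAP mean of the short pool exceeded that of the long pool. A share within a library does not depend on how the libraries are scaled.

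**Figure D2:**
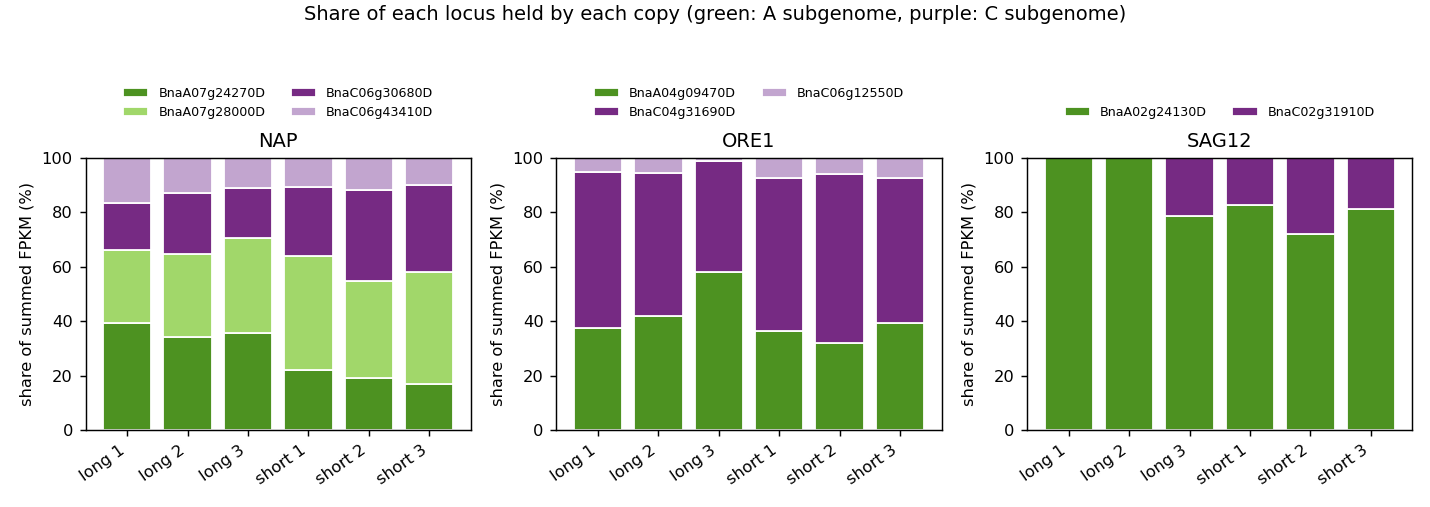
Share of the summed FPKM of NAP, ORE1 and SAG12 (y axis, percent) held by each copy in each library, with A subgenome copies in green and C subgenome copies in purple. The dark green NAP copy BnaA07g24270D takes 34.05 to 39.4% in the long libraries and 16.9 to 22.1% in the short ones; the SAG12 copy of C02 is absent from long replicates 1 and 2.

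Whether the copies fell by unequal amounts was also tested on within-library log2 ratios of CPM + 0.5, with limma over 395 pairs of listed copies that share an Arabidopsis locus. Of all these pairs 19.2% differed between the pools at an adjusted p of at most 0.05, and of the 6 NAP pairs 3 did. Pairs of 1 locus share copies and are not independent. The log2 ratio of BnaA07g24270D to BnaC06g30680D was higher in the long pool by 1.40 ± 0.28 (SE; limma adjusted p = 0.000837). That of BnaA07g24270D to BnaA07g28000D was higher by 1.18 ± 0.27 (SE; limma adjusted p = 0.00268), so this copy fell less than both. These differences passed in all 8 alternatives tried, the replicate block and each left-out library included.

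The ratio of BnaC06g30680D to BnaC06g43410D was lower in the long pool, by -0.98 ± 0.28 (SE; limma adjusted p = 0.0137), and passed in 6 of 8 alternatives (log2 differences of -0.81 to -1.10, adjusted p of 0.00943 to 0.105). For the pair with the highest levels, BnaA07g28000D and BnaC06g30680D, the difference was 0.23 on the log2 scale with a 95% interval from -0.35 to 0.81 (limma adjusted p = 0.704). The interval allows a difference in either direction. The pair of BnaA07g28000D and BnaC06g43410D missed the threshold (log2 difference -0.76 ± 0.28 SE; limma adjusted p = 0.0694), as did BnaA07g24270D and BnaC06g43410D (0.42 ± 0.26 SE; limma adjusted p = 0.389).

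By subgenome, A copies held 67.2% ± 3.05 of the NAP sum in the long-silique pool and 58.8% ± 4.72 in the other (SD, n = 3). The pools did not overlap, with 64.8 to 70.6% in the long and 54.6 to 63.9% in the short libraries (exact permutation p = 0.1, adjusted over 3 loci 0.3). The A copies thus held more of the NAP level than the C copies in all 6 libraries.

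ORE1 was expressed at a much lower level than NAP. The sum of its 3 copies was 7.80, 6.61 and 4.86 FPKM in short replicates 1 to 3 and 2.03, 1.81 and 2.95 FPKM in long replicates 1 to 3. All long libraries were lower, and the ratio of the means was 2.84, short over long. The sum differed by -1.47 on the log2(FPKM + 0.1) scale (exact permutation p = 0.1). In the table these genes are described by their closest protein in SwissProt as NAC100, another NAC protein, so their link to ORE1 rests on the Arabidopsis locus given by the authors.

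A pair of copies, BnaC04g31690D and BnaA04g09470D, on the corresponding chromosomes C04 and A04, carried nearly all of the ORE1 level. BnaC04g31690D (C04, 33432546 to 33433766) stood at 4.38, 4.09 and 2.59 FPKM in short and at 1.16, 0.95 and 1.2 FPKM in long replicates 1 to 3. The long libraries were tight and all below the short ones. It fell by 1.74 ± 0.31 in log2 units (SE; edgeR adjusted p = 0.00346). Its share of the ORE1 level was 57.1% ± 4.37 in the short and 50.1% ± 8.49 in the long pool (SD, n = 3), with overlap (exact permutation p = 0.4).

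BnaA04g09470D (A04, 8447658 to 8448887) was the only tested member that did not pass. Its FPKM was 2.84, 2.12 and 1.91 in short and 0.76, 0.76 and 1.71 in long replicates 1 to 3. Long replicate 3 came close to the short libraries. The log2 fold change was -1.11 ± 0.37 (SE; edgeR adjusted p = 0.243), and without long replicate 3 it was -1.58 and passed (edgeR adjusted p = 0.0469). Its share of the ORE1 level was 35.9% ± 3.64 in the short pool and 45.8% ± 10.8 in the long pool (SD, n = 3), where long replicate 3 alone reached 58.0%. The log2 ratio of BnaA04g09470D to BnaC04g31690D differed by 0.49 between the pools, with a 95% interval from -0.11 to 1.08 (limma adjusted p = 0.335).

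BnaC06g12550D (C06, 15068947 to 15070299) was the weakest of the 9 copies in the short pool. It had 15, 12 and 10 counts in short and 3, 3 and 1 counts in long replicates 1 to 3, and its low counts kept it out of the test. Summed over the pools this was 37 against 7 counts, a ratio of 5.09 per read total, short over long (95% exact counting interval 2.24 to 13.5, counting error only). Without the filter its log2 fold change was -2.31 (edgeR adjusted p = 0.0766). It also entered the test with 5 of the 6 libraries left out in turn. It passed without short replicate 3 (log2 fold change -2.43; edgeR adjusted p = 0.0494) and missed without short replicate 1 or any of the long replicates (edgeR adjusted p of 0.125 to 0.226). It held 6.96% ± 0.791 of the ORE1 level in the short and 4.1% ± 2.38 in the long pool (SD, n = 3).

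SAG12 differed most of the 3 loci. Its 2 copies summed to 7.06, 8.45 and 4.53 FPKM in short replicates 1 to 3 and to 0.26, 0.07 and 0.51 FPKM in long replicates 1 to 3. The ratio of the means was 23.9, short over long, and the log2(FPKM + 0.1) values differed by -4.30 (exact permutation p = 0.1). The size depends on the pseudocount, since the long libraries are near 0, and on the log2(FPKM + 1) scale the difference was -2.56. In the short pool SAG12 made up 10.4% ± 3.54 of the level of the 9 genes and in the long pool 2.10% ± 1.69 (SD, n = 3). ORE1 made up 9.91% ± 1.54 in the short and 16.9% ± 4.85 in the long pool (SD, n = 3).

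The A02 copy carried most of SAG12. BnaA02g24130D (A02, 17478814 to 17481156) had 197, 236 and 132 counts in short and 9, 3 and 12 counts in long replicates 1 to 3. In FPKM this was 5.83, 6.09 and 3.67 against 0.26, 0.07 and 0.40. The pools were far apart, and the long libraries lay only up to a few times the floor of 3 counts. The log2 fold change was -4.45 ± 0.42 (SE; edgeR adjusted p = 1.29e-05), and without long replicate 2, the lowest library, it was -3.97.

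BnaC02g31910D (C02, 34348536 to 34350786) had 39, 86 and 29 counts in short replicates 1 to 3, or 1.23, 2.36 and 0.86 FPKM. In the long pool it had 0 counts in replicates 1 and 2 and 3 counts in replicate 3. The 154 against 3 counts gave a ratio of 49.5 per read total, short over long (95% exact counting interval 16.6 to 243). The fitted log2 fold of -5.43 ± 0.75 (SE; edgeR adjusted p = 0.000513) rests on those 3 counts, and without long replicate 3 it was -8.68, a value set by the prior count. Of the SAG12 level in the short pool the A02 copy held 78.6% ± 5.67 and the C02 copy 21.4% ± 5.67 (SD, n = 3). The share did not pass an exact permutation test (p = 0.3), which in this design cannot go below 0.1. On the log2(CPM + 0.5) scale the ratio of the A02 to the C02 copy was lower in the long pool, by -1.13 ± 0.28 (SE; limma adjusted p = 0.00607), and with a pseudocount of 0.1 CPM by -0.39 (limma adjusted p = 0.698). Without long replicate 2 the pair also missed the threshold (-0.97; limma adjusted p = 0.0515). The summed counts gave the opposite order, with an A02 to C02 ratio of 8 for long and 3.67 for short siliques. The long pool had 24 and 3 counts of the copies, so the pseudocount sets much of the ratio there and no direction is read from it.

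**Figure D3:**
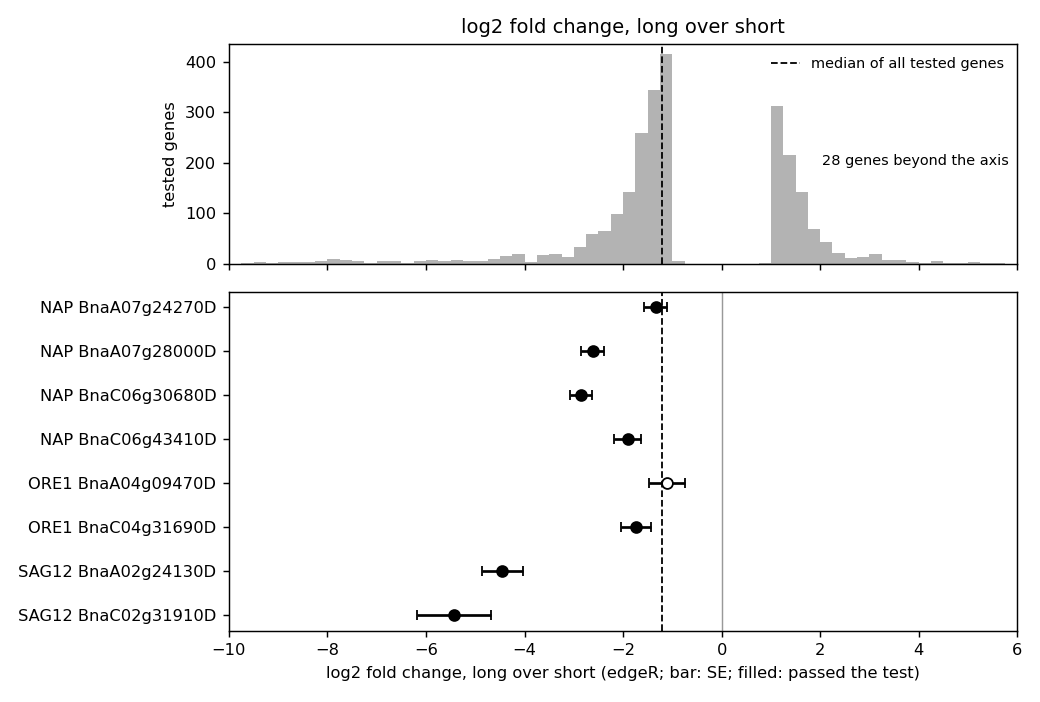
Log2 fold change, long over short, of all 2574 tested genes as a histogram (top, 28 genes beyond the axis) and of the 8 tested members with their SE (bottom, filled where the edgeR test was passed). The gap around 0 is the authors' selection of genes; the dashed line is the median of all tested genes at -1.22, and both SAG12 copies lie furthest to its left.

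Short libraries did not keep one order across the loci. Short replicate 1 was the highest for summed NAP and ORE1, and short replicate 2 was the lowest for NAP and the highest for SAG12. In the long pool replicate 3 was the lowest for NAP and the highest for ORE1 and SAG12. With 3 libraries per pool these orders are a description only.

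The direction of listed genes near each copy was counted, since pools of different accessions can differ over stretches of a chromosome. Within 1 Mb of BnaC06g30680D the authors' deposited table held 16 other genes, 3 of them higher and 13 lower, and near BnaA07g28000D it held 15, of which 4 were higher and 11 lower. Around BnaA07g24270D there were 4, with 3 higher and 1 lower. The SAG12 copy of A02 had 4 neighbours, all lower, and that of C02 had 8, with 5 higher and 3 lower. The ORE1 copy of A04 had 7, with 2 higher and 5 lower, and the remaining copies 3 or fewer. Of all listed genes 65.6% were lower. The part of linked sequence in the results of the members was not tested.

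Other genes of senescence were counted in 8 lists by Arabidopsis locus. In the authors' deposited table they had 34 genes apart from the members, 2 higher and 32 lower in the long pool, while 65.6% of all listed genes were lower. With edgeR, all 31 tested genes had a negative log2 fold change, and 19 of them fell, while 23.1% of all tested genes were called higher and 43.5% lower. With TMM over the listed genes 4 fell, a share near the 12.8% of all tested genes called lower under that scaling. The count was 4 also with DESeq2 and its own size factors, and with 1 library left out it was 13 to 18 (13 without long replicate 1 or 2 or short replicate 3). The lists share the selection of the table with the members, and several of their genes are copies of 1 locus. They also hold genes that do not promote senescence. The genes that fell include BnaA07g00410D, a copy of GLK1, whose protein ORE1 opposes, so the counts are not counts of senescence promoters.

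The list of other senescence NAC factors held 11 genes from 3 of its 12 loci, all lower in the authors' deposited table. Of 10 tested, 6 fell (edgeR), against 43.5% of all tested genes called lower. The median log2 fold change was -1.61 over those tested, against -1.22 over all genes. The latter mixes both directions, so the list is not shown to have fallen more than other lower genes. BnaAnng26200D, a copy of NAC047, had the smallest p, with a log2 fold of -2.32 ± 0.29 (SE; edgeR adjusted p = 0.000247). ORS1 is the closest relative of ORE1 in Arabidopsis and likewise promotes senescence. Its copy BnaA06g31080D fell by 1.93 ± 0.30 in log2 units (SE; edgeR adjusted p = 0.00102). Another ORS1 copy, BnaCnng49350D, had 27, 46 and 15 counts in short replicates 1 to 3 and 0 in all long libraries, which makes it at least 28.3-fold lower if 3 counts are taken as the floor of the long pool as a whole. NAC055, a jasmonate-responsive factor, had 5 copies in the table, of which 2 fell. The list's count of 6 was 3 without long replicate 1 or 2, without short replicate 1 or 3 or with the replicate block, 4 without long replicate 3, and 2 with TMM over the listed genes. Apart from the members, 22 listed genes had NAC in their SwissProt description, a set counted after the values were seen that shares genes with the list. All 22 were lower in the authors' deposited table, and 11 of 20 tested fell (edgeR). The direction was therefore not particular to the senescence factors among the listed NAC genes.

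Of the genes that act with NAP and ORE1, the table held 2 of 18 loci with 4 genes, and all 4 fell (edgeR; median log2 fold change -1.60). Of all tested genes 43.5% were called lower. The 4 genes come from 2 loci and from a table selected for differing, so they are not independent. BFN1 encodes a nuclease that degrades nucleic acids in dying cells and is a direct target of ORE1 in Arabidopsis. All 3 of its listed copies fell, among them BnaCnng63000D with -2.22 ± 0.36 (SE; edgeR adjusted p = 0.00148) and BnaA09g47700D with -1.68 ± 0.40 (SE; edgeR adjusted p = 0.0294) on the log2 scale. GLK1 promotes chloroplast development, and ORE1 is known to bind and oppose the GLK proteins. Its copy BnaA07g00410D had a log2 fold of -1.47 ± 0.32 (SE; edgeR adjusted p = 0.0161). The list's count of lower calls, 4, was 1 without long replicate 1 or 2 or short replicate 3, 2 without short replicate 1 or with the replicate block, and 0 with TMM. The calls of BnaA09g47700D and BnaA07g00410D each ended without long replicate 1 (log2 fold changes of -1.41 and -1.48). They also ended without long replicate 2 (-1.49 and -1.24) and without short replicate 3 (-1.44 and -1.39). That of BnaA09g47700D ended without short replicate 1 (-1.78), and that of BnaA07g00410D without short replicate 2 (-1.35) and with the replicate block (edgeR adjusted p = 0.0616).

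None of the 9 loci of chlorophyll breakdown had a gene in the table, so these were not analysed here. A list of photosystem and Rubisco small subunit loci, taken as markers of green tissue, had 1 of 19 loci in the table. This was BnaC07g09400D, a copy of CAB2, which encodes a chlorophyll-binding antenna protein. It stood at 223 to 254 CPM in the long and 86.1 to 150 CPM in the short libraries and rose by 1.07 ± 0.18 in log2 units (SE; edgeR adjusted p = 0.00236). Of the 12 genes in the authors' photosynthesis classes, a wider set counted after the values were seen, 11 were tested, and 2 rose and 8 fell (edgeR). Of all tested genes 23.1% were called higher and 43.5% lower. BnaCnng19490D, a copy of the photosystem I subunit F gene outside the list, fell, with a log2 fold of -4.31 ± 0.63 (SE; edgeR adjusted p = 0.00565). The CAB2 copy therefore does not stand for the listed photosynthesis genes as a group.

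The list of cysteine proteases and processing enzymes, relatives of SAG12 in function, held 5 genes from 4 of 33 loci. Of 4 tested, 3 fell (edgeR; median log2 fold change -2.0), and 1 with TMM or with DESeq2 and its own size factors. The authors' own cysteine protease class, to which both SAG12 copies belong, held 15 other tested genes, of which 9 fell and 3 rose (edgeR). Their class of unspecified development, to which the NAP and ORE1 copies belong, held 59 other tested genes. Of those, 25 fell and 9 rose (edgeR). Both classes were counted after the values were seen. Over all tested genes 43.5% were called lower and 23.1% higher. CEP1 and CEP2 encode papain-type proteases with a KDEL tail, which act in programmed cell death. BnaA06g16650D, a copy of CEP2, was at -2.43 ± 0.38 (SE; edgeR adjusted p = 0.000998) on the log2 scale. BnaC03g27700D, a copy of CEP1, was at -1.63 ± 0.27 (SE; edgeR adjusted p = 0.00180). BnaA09g28660D, with the locus AT4G11310, had a log2 fold of -2.37 ± 0.43 (SE; edgeR adjusted p = 0.00380). The fifth gene, BnaCnng08320D, another copy of that locus, was higher in the long pool in the authors' deposited table and had too few counts to be tested.

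The senescence-associated list held 8 genes from 5 of 12 loci, and 4 of 8 tested fell, a share near the 43.5% of all tested genes (edgeR; median log2 fold change -1.15, above that of all genes). With TMM or with DESeq2 and its own size factors 1 fell. Of these, 3 were copies of SEN4, which encodes a xyloglucan-modifying wall enzyme also named XTH24. The closest SwissProt protein of BnaA01g06750D is a relative, xyloglucan endotransglucosylase/hydrolase protein 22, so its link to SEN4 rests on the Arabidopsis locus given by the authors. BnaA01g06750D had a log2 fold of -1.84 ± 0.22 (SE; edgeR adjusted p = 9.24e-05) and BnaC07g42500D one of -1.13 ± 0.16 (SE; edgeR adjusted p = 0.000433). The fourth was BnaC03g73200D, a copy of SAG21, with -1.16 ± 0.18 (SE; edgeR adjusted p = 0.000858). Both copies of SAG29, a sugar exporter also named SWEET15, missed the test (edgeR adjusted p = 1 for both). BnaC02g04530D, one of them, had 474 counts in short replicate 3 but 99 and 23 in short replicates 1 and 2.

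The nitrate transporter gene NRT1.7 moves nitrate out of old leaves. Its copy BnaC06g25140D was the 1 called gene of 2 tested in the nutrient list, with a log2 fold of -1.70 ± 0.28 (SE; edgeR adjusted p = 0.00142). The count was 2 without long replicate 1, and 0 with TMM (this copy then at a log2 fold change of -0.92) or with DESeq2 and its own size factors (-0.77). Of 3 tested autophagy genes, BnaC05g45400D (ATG8H) passed, with a log2 fold of -2.21 ± 0.49 (SE; edgeR adjusted p = 0.0155). Its call ended with TMM (log2 fold change -1.45), with DESeq2 and its own size factors (-1.32) and with the replicate block (edgeR adjusted p = 0.109). It also ended without each of long replicates 1, 2 and 3 and short replicate 3 (log2 fold changes of -2.39, -2.41, -1.92 and -1.96). Of all tested genes 43.5% were called lower in the main fit. The only listed gene of the senescence WRKY list, BnaA03g19190D (WRKY54, a repressor of leaf senescence), was higher in the long pool in the authors' deposited table and had too few counts for the test.

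**Figure D4:**
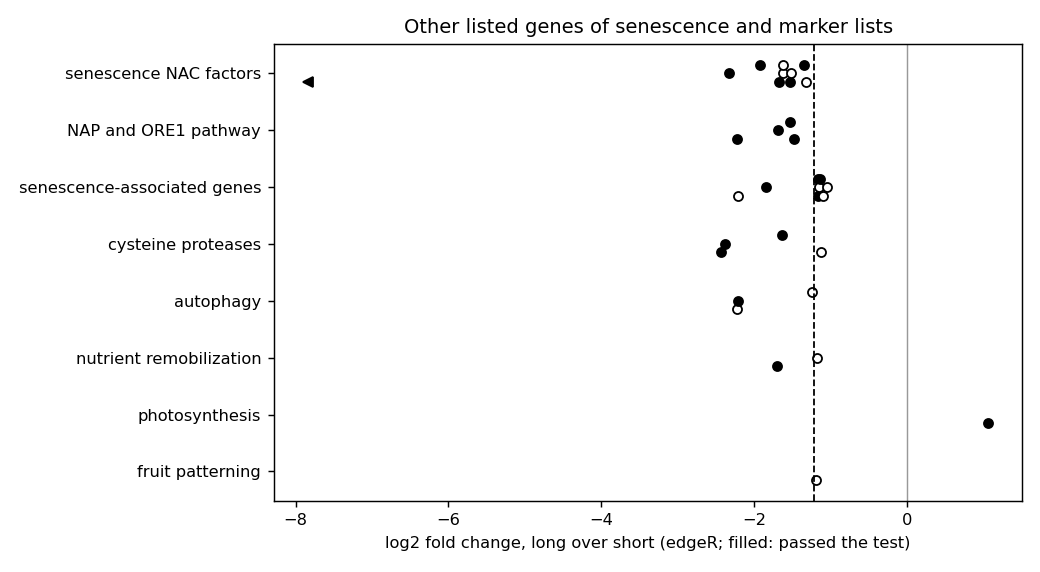
Log2 fold change, long over short, of the tested genes of each list other than the members (edgeR; filled points passed the test, open points did not; the triangle is a gene with 0 counts in the long pool, whose value depends on the prior count). The dashed line is the median of all tested genes at -1.22; all points of the senescence lists lie below 0 and the CAB2 copy, the 1 listed gene of the photosynthesis loci chosen here, at 1.07.

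NAP was first described as a target of the floral organ factors AP3 and PI. A copy of PI, BnaA10g15180D, was the only listed gene of the petal, stamen and pollen markers, while AP3 was not in the table. It had 11, 9 and 9 counts in short replicates 1 to 3 and 5, 1 and 1 in long replicates 1 to 3, a level of 0.308 to 0.432 CPM in the short and 0.0330 to 0.194 CPM in the long libraries. It was too low to be tested. FIL (BnaC03g25170D), the listed fruit patterning gene, did not pass (log2 fold change -1.19 ± 0.40 SE; edgeR adjusted p = 0.236). The part of other tissues in the levels of NAP, ORE1 and SAG12 was not tested.

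Genes with the most similar profile to the leading copy of each locus were found by the root mean square difference of mean-centred log2(CPM + 0.5) over the 6 libraries, among 1187 genes with an Arabidopsis locus and at least 1 CPM. For BnaA07g28000D (NAP) the nearest was BnaA02g30740D, a copy of BXL1, which encodes a cell wall beta-xylosidase, at 0.191 against a median of 0.803. BnaC03g70710D (AT1G55680, a WD repeat protein) at 0.211 and BnaC06g08370D (AT1G34750, a protein phosphatase 2C) at 0.219 came next. The edgeR log2 fold changes of these genes were -2.24, -3.23 and -9.35 in that order, against -2.61 for BnaA07g28000D. Adding 0.5 CPM shrinks the step of a gene near 0 CPM, so a small difference here does not mean an equal fold change. The NAP copy BnaC06g30680D stood at 0.243, with 5 genes nearer, and BnaA07g24270D at 0.615, with 197 nearer.

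For BnaC04g31690D (ORE1) the nearest genes were BnaA02g37060D (AT5G24270, a calcineurin B-like protein also named SOS3) at 0.0685, BnaC04g16720D (AT2G27660, a DC1 domain protein) at 0.0726 and BnaA09g00050D (AT4G01330, a protein kinase) at 0.0857, against a median of 0.413. For BnaA02g24130D (SAG12) they were BnaCnng19490D (AT1G31330, photosystem I subunit F) at 0.252, the BXL1 copy BnaC07g27160D at 0.260 and BnaC08g15650D (AT1G12610, the factor DDF1) at 0.276, against a median of 1.17. The likeness is set mostly by the step between the pools, which the table was selected for.

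The size of the decreases depends on how libraries are scaled, because a table of selected genes holds no unchanged majority. With TMM over the listed genes, all log2 fold changes moved up by a median of 0.78, and 5 of the 8 tested copies still fell, against 12.8% of all tested genes called lower. The calls of BnaA07g24270D (log2 fold change -0.55) and BnaC04g31690D (-0.95) then ended. With DESeq2 and its own size factors that of BnaC06g43410D ended as well (-0.97). Both SAG12 copies, BnaA07g28000D and BnaC06g30680D passed under every scaling and with every library left out.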

How the data were processed

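RNA-seq of 6 silique wall libraries, 3 per pool, was used. Per the series design text, filtered reads were mapped to the Darmor genome and uniquely mapped reads were quantified, so reads shared by near-identical copies may be missing. Neither an aligner nor a release of the reference is given in the sources used here. Per the submitters' processing notes, edgeR and DESeq2 were used, with no version named. Per the file headers, the authors deposited whole-number counts and FPKM for each library. Their own comparison was deposited as a log2 fold change with its p-value and FDR. Of 62610 rows, 59362 were blank and left out.

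Library totals were recovered from counts, FPKM and gene span (genes with at least 200 counts and 5 FPKM; median of the ratios within 0.5% of their 95th percentile), and are estimates. They replaced TMM because the table holds selected genes. Counts were tested with edgeR 4.0.16 (quasi-likelihood, robust, filterByExpr; R 4.3.3), adjusted over 65264 genes, the number recovered from FDR and p (65242 to 65287 within rounding). Each adjusted p treats unlisted genes as larger in p, and the spread comes from selected genes, which may make p-values too small. Copy pairs were tested with limma 3.58.1, a test added after seeing the data. For the SAG12 pair, with counts near 0, its value depends on the pseudocount. Alternatives used DESeq2 1.42.0, limma-voom, other scalings and filters. Single values were tested by exact permutation with scipy 1.17.1 (Python 3.11.15), and figures were drawn with matplotlib 3.10.9. Both fits had first been tried on simulated data with known changes.

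The members and lists were chosen with earlier results of these data known. Named genes are all members, up to 3 called genes per list with the smallest p, and the 3 genes nearest to the leading copy of each locus; SAG29, WRKY54, PI, FIL and BnaCnng08320D were named after their values were seen. None of the gene IDs was found in the RefSeq gene table (0 matches), so names and positions come from the deposited table, and 2113 genes had an Arabidopsis locus. Replicate numbers were not used to pair the libraries in the main tests.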

Additional observations from a re-analysis of the deposited data

How the results depend on the processing

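All 9 members kept a negative log2 fold change in each alternative that tested them. The 7 calls among members became 5 with TMM over the listed genes and 4 with DESeq2 and its own size factors, both of which centre on selected genes, and ranged from 7 to 8 when 1 library was left out. The 20 calls among the genes of all 12 lists became 5 with TMM, 5 with DESeq2 and its own size factors and 13 at an adjusted p of at most 0.01, and ranged from 14 to 19 with 1 library left out. Over all tested genes, calls in either direction also went down, from 1713 to 1246 with TMM and to 1168 with DESeq2 and its own size factors. At an adjusted p of at most 0.01 they numbered 1112. With 1 library left out they ranged from 1109 to 1434, among 2739 to 2843 tested genes. Of the 6 NAP pairs, 2 to 4 passed with 1 library left out. The pair of BnaC06g30680D and BnaC06g43410D was lost without long replicate 1 and with a pseudocount of 0.1 CPM. Replicate numbers are shared between the pools. Deviations of same-numbered libraries correlated by 0.0411, 0.0104 and 0.00589, and those of differently numbered ones by -0.0349 to 0.0262. These values cannot show whether same-numbered libraries were handled together, and the labels do not say. With the replicate block 7 members were called, and the calls of all tested genes went from 1713 to 1228. A sign-flip test of the locus sums within replicate numbers gave an exact p of 0.25 for each locus, the smallest that 3 pairs allow. Depth limits the SAG12 copies in the long pool and BnaC06g12550D. Copies outside the table were not analysed here, so shares are shares of the listed copies.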
